A study of Daphnia magna with 24 samples.

Results

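The 54 array features described here had positive log ratios in every measured exposure of the water flea Daphnia magna to water from 3 sites of Greenhorn Mine, with a high mean over the sites, and they were selected on exactly those values. They came from 7388 features with a value in at least 2 exposures at each of the 4 sites, out of 7680 on the array. Of the 7388, 607 had every measured exposure at the 3 mine-water sites above 0, 176 of these also had each site mean at 0.4 or more, and 54 also had a mean of the 3 site means of 1.2 or more. The upstream site entered the rule only through the need for 2 measured exposures. Levels at the mine-water sites are therefore a description. Upstream values and dye effects did not enter the rule and were tested. The upstream test shares its estimate of spread with the mine-water sites, so it is not fully separate from the rule. Differences among the mine-water sites come from the same values as the rule, so their fits over all features are given for description and support nothing about the list.

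Adult females of 1 genetically homogeneous stock, 14 to 16 days old, spent 24 h at 23.5 °C in field water taken upstream of the mine, at the point where mine drainage enters, or at a first or second downstream position (downstream 1 and downstream 2). The stock was grown in COMBO, a defined freshwater medium, and the comparison RNA on every array came from unexposed animals, described in the design text as a laboratory control in COMBO. Each of 3 exposures per site pooled 10 to 15 whole animals and was measured on 2 arrays, with Cy3 and Cy5 exchanged on the second. Copper differed between the sites per the design text, which gives no amounts. The labels call the exposures of a site biological replicates but do not say whether they came from separate cultures or whether control RNA was shared between arrays, so p-values cover only how these exposures differed, in part perhaps for technical reasons.

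Daphnia are filter-feeding crustaceans that take up dissolved metals through the gill surfaces and the gut and are widely used to test water for toxicity. In animals generally, excess copper is bound by small cysteine-rich proteins, the metallothioneins, and generates reactive oxygen that is met by antioxidant enzymes and chaperones. None of the 54 features can be tied to such a role here: the deposited values carry array IDs only, 0 of 7680 IDs matched a table of Daphnia magna genes, and no sequence was at hand for any of them. The features are therefore described by ID, level and pattern.

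A value is the log ratio of exposed and control RNA, averaged over both arrays of an exposure after each array was centred on its median. The base of the logarithm is unknown and taken as 2, so folds hold only for that base. The direction of the ratio is not stated either. Exposed over control is taken as likely, because exposed animals are the second channel of every array. The dye-swapped arrays keep their sign, so all arrays share 1 order of channels, but this does not show which order. Values are therefore called positive or negative only. An array gave values for 7015 to 7472 features, and the r between both arrays of an exposure across all features ran from 0.149 (upstream exposure 3) to 0.772 (downstream 2 exposure 3). The upstream exposures stood apart from each other, with a mean r of -0.116 among them against 0.393 to 0.505 within the mine-water sites, so upstream values are also given without single exposures.

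Over the 54 features, the median site mean was 0.18 for upstream water, 1.81 for entry water, 1.67 for downstream 1 and 1.74 for downstream 2, beside -0.01, -0.02, 0.02 and 0.01 over all tested features. In RNA of whole animals, a change in the number of cells of a type and a change in RNA per cell cannot be told apart. The mean of the 3 mine-water site means ran from 1.2 to 3.80. Of all tested features, only 2 others reached 1.2, P7BD1 at 1.86 and P1DC12 at 1.44, and both had mine-water exposures at or below 0 (1 and 3 of 9). The ordered list had its widest steps after the 20th feature, from 2.78 to 2.48, and after the 23rd, from 2.33 to 1.84. The first 20, called the leading features below, were set apart after these steps had been seen. All 54 were above 0 on each of the 18 single mine-water arrays that gave them a value. The rule on averages of the same arrays made this likely in advance, so nothing is read from it. Of the 54, 39 had a value on all 24 arrays.

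**Figure D1:**
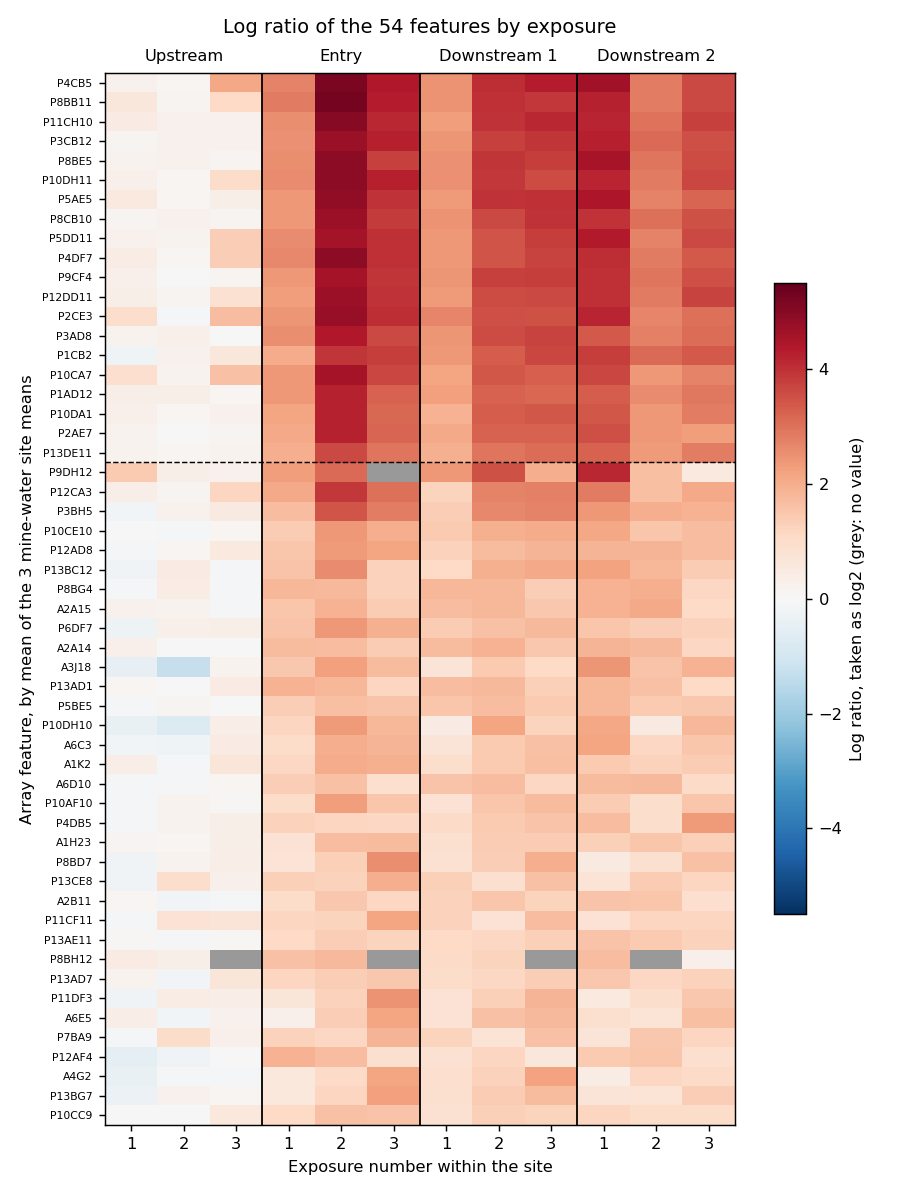
Log ratio of each of the 54 features (rows, ordered by the mean of the 3 mine-water site means) in each of the 12 exposures (columns, 3 per site), on a colour scale taken as log2, with grey where no value was given. The dashed line separates the 20 leading features, whose values reached 5.25 in entry exposure 2, and the upstream columns are paler than the others, with values from -1.26 (A3J18, exposure 2) to 2.14 (P4CB5, exposure 3).

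P4CB5 had the highest mean of all tested features, 3.80, a 14-fold ratio if the base is 2. Its 3 entry exposures stood at 2.73, 5.18 and 4.41, those of downstream 1 at 2.48, 4.05 and 4.33, and those of downstream 2 at 4.63, 2.79 and 3.64. Upstream they were 0.22, 0.09 and 2.14, so the third upstream exposure came near the lowest mine-water one while the other two were close to 0.

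P8BB11 followed, with 2.85, 5.25 and 4.30 in entry water, 2.46, 4.02 and 3.87 in water of downstream 1, and 4.23, 2.80 and 3.65 in that of downstream 2. Its upstream values were 0.61, 0.17 and 1.10. The lowest exposure of each mine-water site was the same as for P4CB5, while the highest at downstream 1 was exposure 2 here and exposure 3 there.

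P11CH10 had entry values of 2.56, 4.99 and 4.13, downstream 1 values of 2.30, 3.97 and 4.16, downstream 2 values of 4.18, 2.97 and 3.78, and upstream values of 0.46, 0.24 and 0.24. P3CB12 had 2.52, 4.76 and 4.29, then 2.43, 3.75 and 3.93, then 4.26, 3.14 and 3.55 for the mine-water sites in the same order, and 0.17, 0.23 and 0.22 upstream. In neither feature was exposure 3 the highest upstream. Their means of the site means were 3.67 and 3.62, a 12.7-fold and a 12.3-fold ratio if the base is 2. Close to them came P8BE5, P10DH11, P5AE5 and P8CB10, with means of the site means of 3.61, 3.61, 3.55 and 3.51. The 20th feature, P13DE11, was at 2.78. All 20 had entry exposure 1 as their lowest and exposure 2 as their highest entry value, and all 20 had their lowest downstream 1 value in exposure 1 and their highest downstream 2 value in exposure 1. Over all tested features these positions were held by 30.5%, 26.1%, 37% and 35.2%. These positions were therefore shared among the leading features, but the full order was shared at the entry only. The highest downstream 1 value was exposure 3 in 13 and exposure 2 in 7. The lowest downstream 2 value was exposure 2 in 19 and exposure 3 in 1. Exposure numbers carry no order of their own.

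The range between exposures was wide for these features. At the entry, the 20 lay between 2.02 and 2.85 in exposure 1, 3.64 and 5.25 in exposure 2, and 2.96 and 4.41 in exposure 3, so that exposures 1 and 2 did not overlap across the 20. At downstream 1 exposure 1 they lay between 1.91 and 2.70, below their 2.96 to 4.05 in exposure 2 and 3.07 to 4.33 in exposure 3. At downstream 2 they lay between 3.26 and 4.63 in exposure 1 and between 2.36 and 3.14 in exposure 2. The SD between exposures pooled over the mine-water sites had a median of 0.86 for the 20 leading features, 0.40 for the other 34 and 0.21 for all tested features. The medians of the 20 site means lay closer together than the exposures did, at 3.70 for the entry, 3.24 for downstream 1 and 3.48 for downstream 2.

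P4CB5 and P5AE5 had pooled SDs of 1.07 and 1.05. The highest pooled SD, 1.30, belonged to P9DH12, which had no value in entry exposure 3 and only 20 of 24 arrays, and which stood at 4.15 in downstream 2 exposure 1 and at 1.67 and 0.52 in the other two. At the other end were P13AE11 with 0.13, P13AD7 with 0.17 and P5BE5 with 0.18. P13AE11 had entry exposures of 1.12, 1.35 and 1.21, downstream 1 exposures of 1.09, 1.12 and 1.32, downstream 2 exposures of 1.57, 1.45 and 1.25, and upstream exposures of 0.08, -0.13 and 0.07. P5BE5 had 1.35, 1.66 and 1.57, then 1.51, 1.69 and 1.42, then 1.84, 1.43 and 1.47, and -0.09, 0.17 and 0.003 upstream. In both features the 9 mine-water exposures lay close together and clear of the upstream ones.

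The profiles of the 52 features with a value in all 9 mine-water exposures were compared by Pearson's r, as a description over exposures that share arrays among features. Pairs of the 20 leading features had a median r of 0.962 and a lowest r of 0.833, while the median over all pairs of the 52 was 0.527 and the lowest -0.805. Average-linkage grouping at a distance (1 minus r) of 0.3, chosen after the values were seen, gave 4 groups of 32, 6, 5 and 3 features and 6 single features. The 32 of group 1 held all 20 leading features, and its other 12 reached down to P10CC9 at 1.2. The median r within group 1 was 0.916 and the lowest 0.458.

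Group 2 was P8BG4, A2A15, A2A14, P13AD1, A6D10 and A2B11, whose medians were lowest in exposure 3 of each mine-water site. Their exposure medians were 1.63, 1.74 and 1.23 for the entry, 1.70, 1.80 and 1.34 for downstream 1, and 1.85, 1.78 and 1.09 for downstream 2. A2A14 and A2A15, whose IDs read as neighbouring wells of plate A2, were alike in level too. A2A14 had site means of 1.63 ± 0.18, 1.71 ± 0.23 and 1.60 ± 0.39 in the order entry, downstream 1, downstream 2 (SD, n = 3), and A2A15 had 1.60 ± 0.27, 1.67 ± 0.18 and 1.69 ± 0.54. Differences between these 2 features were thus smaller than the SD of either at each site.

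Group 3 was P8BD7, P11DF3, A6E5, A4G2 and P13BG7, with exposure 3 highest in the medians of every mine-water site. The medians were 0.59, 1.25 and 2.26 for the entry, 0.82, 1.37 and 1.85 for downstream 1, and 0.54, 0.88 and 1.46 for downstream 2. Group 4, with P13CE8, P11CF11 and P7BA9, had medians of 1.28, 1.21 and 1.99 for the entry, 1.27, 0.79 and 1.60 for downstream 1, and 0.74, 1.41 and 1.18 for downstream 2. Upstream its medians were -0.11, 0.96 and 0.29, and in each of the 3 features upstream exposure 2 lay above the lowest mine-water exposure. The single features were P13BC12, A3J18, P5BE5, P4DB5, P13AE11 and P12AF4.

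**Figure D2:**
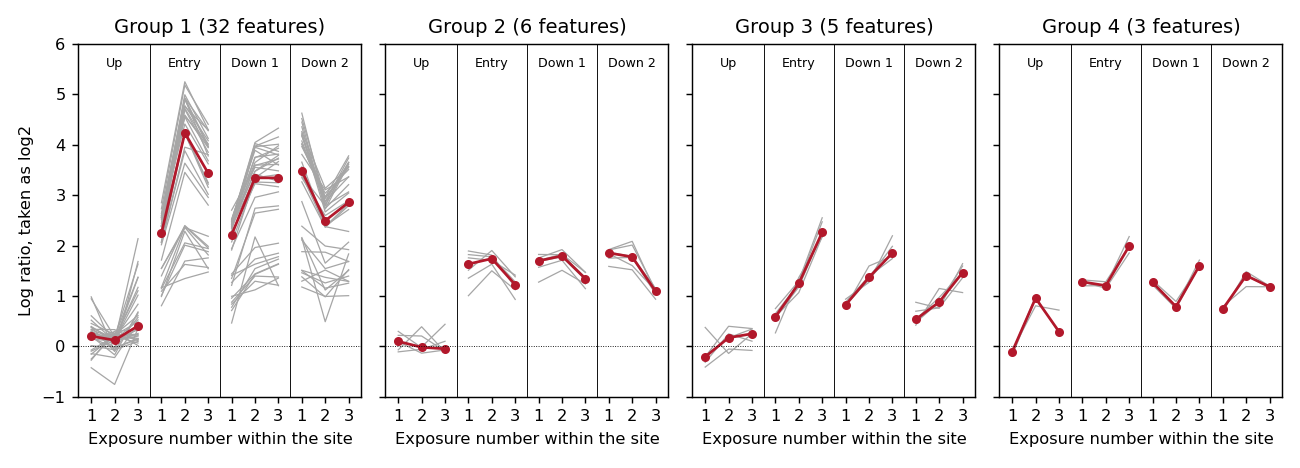
Log ratio, taken as log2, of the features of the 4 profile groups in the 12 exposures, with 1 grey line per feature and the group median in red. Lines join the 3 exposures of a site only to follow a feature, since exposure numbers have no order, and the panels show that group 1 had its entry peak in exposure 2 (median 4.24) while groups 3 and 4 had it in exposure 3 (2.26 and 1.99).

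Upstream water is the comparison that the rule did not use. At the upstream site, 0 of the 54 features differed from control in limma at an adjusted p under 0.05, beside 0% of all 7388 tested features, and 0 of 54 had an unadjusted p under 0.05, beside 6.5%. The lowest adjusted p among them was 0.77, for P10CA7 at 0.94, 0.19 and 1.63 (mean 0.92 ± 0.72, SD, n = 3). The fit held 1 spread per feature over all sites, and that of the list was wide at the mine-water sites. The pooled SD there had a median of 0.65 over the list, beside 0.21 over all tested features. P3CB12, at 0.17, 0.23 and 0.22 upstream, had an unadjusted limma p of 0.62. The count of 0 of 54 beside 6.5% therefore says little about upstream water. The upstream mean was above 0 in 48 of 54 features (88.9%), beside 47.1% of all tested features, with a median of 0.18 beside -0.01. Whether upstream ratios share control RNA with the ratios that chose the list is not stated, and a level set by such RNA cannot be told apart here from one set by upstream water.

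The highest upstream means were those of P10CA7, P2CE3 and P4CB5, at 0.92 ± 0.72, 0.86 ± 0.90 and 0.82 ± 1.14 (SD, n = 3, limma adjusted p 0.77, 0.79 and 0.79). P2CE3 stood at 0.98, -0.10 and 1.68, again with exposure 3 highest. The lowest were A3J18 at -0.47, -1.26 and 0.19, P10DH10 at -0.42, -0.75 and 0.36, and P12AF4 at -0.53, -0.20 and -0.01. For A3J18 and P10DH10 the negative mean rested on exposures 1 and 2, while all 3 of P12AF4 were below 0.

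The high values in upstream exposure 3 came from 1 of its 2 arrays. On the array with exposed RNA in Cy3, 12 of 53 features of the list with a value exceeded 1 (22.6%), beside 33 of 7137 tested features (0.462%), and on its partner with exposed RNA in Cy5 0 of 52 did, beside 29 of 7131 (0.407%). P4CB5 read 3.98 on the first and 0.29 on the second, P10CA7 3.30 and -0.04, and P2CE3 3.23 and 0.14. Of the 20 leading features, 8 exceeded 1 on that array, from 1.45 to 3.98, and the same 8 lay between -0.04 and 0.29 on its partner. The other 12 leading features lay between -0.01 and 0.62 on it. Another upstream array, that of exposure 1 with exposed RNA in Cy5, also read above 1 for P2CE3 (1.62) and P10CA7 (1.33). Its partner read 0.35 and 0.56 for them, and P4CB5 had no value on it. On that Cy5 array 3 of 51 features of the list exceeded 1 (5.88%), beside 6% of tested features.

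The 8 were not set apart at the mine-water sites, where their means ran from 3.14 to 3.80 and those of the other 12 from 2.78 to 3.67. The remaining 4 features above 1 were P12CA3, P3BH5, P11CF11 and P13AD7, which were singled out after their values were seen. With upstream exposure 3 left out, the median upstream mean of the list was 0.14 and 41 of 54 means were above 0. With that exposure taken from its Cy5 array alone they were 0.13 and 44. The matching shares of all tested features are not given, so these counts are values only. Spot intensities were not used here, so what the 2 arrays differed in was not tested.

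**Figure D3:**
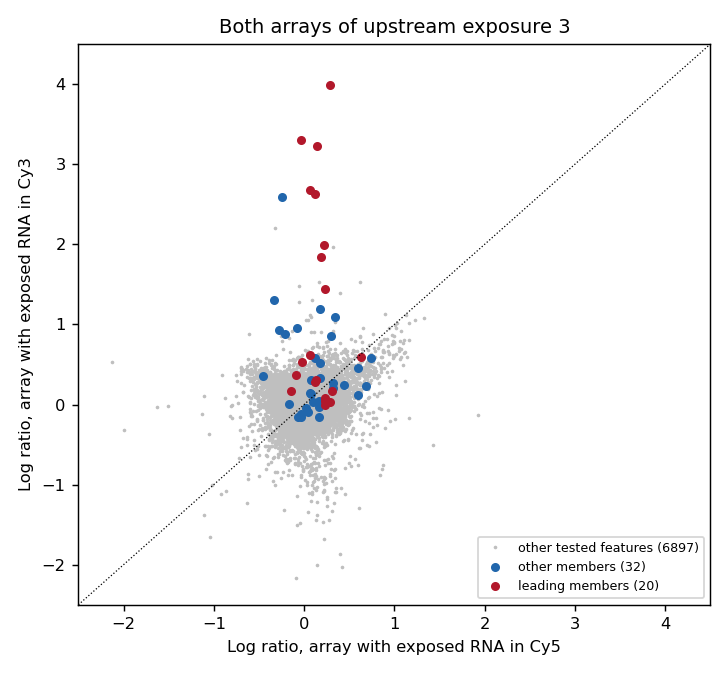
Log ratio of each tested feature on both arrays of upstream exposure 3, with exposed RNA in Cy5 on the horizontal and in Cy3 on the vertical axis, both taken as log2 and the dotted line marking equal values. Leading features are red, the other features of the list blue and the rest grey, and 8 red points lie between 1.45 and 3.98 on the vertical axis while staying at 0.29 or less on the horizontal one.

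The mine-water values of the list were next set beside its upstream values, as a description because the former chose the features. In 48 of 54 features all upstream exposures lay below all mine-water exposures, beside 2.49% of tested features, from which nothing is read. The mean of the mine-water site means minus the upstream mean had a median of 1.67 and ran from 0.80 to 3.43. The 6 features with overlap were P9DH12, P13CE8, P11CF11, P8BH12, A6E5 and P7BA9. In P9DH12 the highest upstream exposure was 1.46 and the lowest mine-water one 0.52. P8BH12 had a value on only 13 arrays and in 2 of 3 exposures at each site. It and P9DH12, without entry exposure 3, were the only ones of the 54 that lacked an exposure, and their fitted means leave those exposures out.

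Differences among the 3 mine-water sites were fitted over all features. The highest site mean was that of the entry in 41 of the 54 (75.9%, beside 26.2% of all tested features), of downstream 2 in 10 (18.5%, beside 36.5%) and of downstream 1 in 3 (5.56%, beside 37.3%). The lowest was that of downstream 1 in 26 (48.1%, beside 20.8%), of downstream 2 in 22 (40.7%, beside 38.4%) and of the entry in 6 (11.1%, beside 40.7%). No feature of the list passed limma's threshold in any of the 3 comparisons, beside 0% of all tested features each time. At an unadjusted p under 0.05 there were 0 of 54 for downstream 1 against the entry (beside 0.555%), 1 for downstream 2 against the entry (beside 3.42%) and 1 for downstream 2 against downstream 1 (beside 3.55%). The 95% intervals were wide, with a median of 0.95 on each side of the difference and a range over the list from 0.26 to 2.14.

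Downstream 1 minus entry had a median of -0.29 over the list, beside 0.04 over all tested features, and was negative in 45 of 54 (83.3%), beside 38% of all. Exposures of these sites that carried the same number deviated together (lowest r over all features 0.404), so they were also compared by number. The difference was negative in all 3 numbers for 21 of 52 features (40.4%), beside 8.95% of all, and positive in all 3 for 4 (7.69%), beside 18.5%. In a limma fit of these 2 sites alone that held the number as a replicate block, 0 of 54 features had an adjusted p under 0.05, beside 0% of all, and 10 (18.5%) had an unadjusted p under 0.05, beside 4.64%. Its medians by number were -0.07, -0.62 and -0.15, so most of it came from number 2. Without entry exposure 2 the median was 0.03 and 26 of 54 differences were negative, and without downstream 1 exposure 1 it was 0.01, with 27 negative. Without entry exposure 1 the median was -0.65. Shares of all tested features with these exposures left out are not given, so the counts are values only. Leaving out an exposure of 1 site breaks its number, so the unpaired size of the difference depended on which exposures were set against each other.

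P12CA3 and A3J18 had the largest negative differences between downstream 1 and the entry. P12CA3 stood at 2.07, 3.88 and 3.02 at the entry and 1.21, 2.74 and 2.79 at downstream 1, a difference of -0.74 (95% interval -2.0 to 0.52, limma adjusted p 1). A3J18 stood at 1.5, 2.24 and 1.72 against 0.71, 1.45 and 1.09, also -0.74 (-1.57 to 0.09, adjusted p 1), without overlap of the exposures. The largest positive differences were 0.19 for A4G2 (-0.76 to 1.14) and 0.17 for A6D10 (-0.37 to 0.71). These intervals ignore the shared numbers. With the replicate block they were -1.32 to -0.16 for P12CA3, -0.97 to -0.51 for A3J18, -0.09 to 0.47 for A4G2 and -0.05 to 0.39 for A6D10. Those of P12CA3 and A3J18 lay below 0, while the limma adjusted p was 0.95 in all 4. P12CA3 and A3J18 were picked for the size of this difference, and the block was added after the data were seen. Their unadjusted intervals therefore support nothing.

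Downstream 2 minus entry had a median of -0.27 and was negative in 44 of 54 features (81.5%), beside 0.01 and 47.5% over all. Same-numbered exposures of these 2 sites did not deviate together (lowest r -0.455). By number, given as values only, the medians were 0.66, -0.85 and -0.42, so the direction turned with the exposure. Without entry exposure 2 the median was 0.09 with 23 negative, and the matching share of all tested features is not given. Among features with 3 exposures at both sites, P12CA3 had the largest negative difference, -0.79 (95% interval -2.05 to 0.47), followed by P10CA7 at -0.63 (-1.96 to 0.71). P4DB5 had the largest positive one, 0.46 (-0.19 to 1.12), with 1.25, 1.19 and 1.16 at the entry and 1.69, 0.96 and 2.34 at downstream 2, where the exposures surrounded those of the entry. The feature of lowest p was P6DF7, at 1.96 ± 0.42 at the entry and 1.39 ± 0.11 at downstream 2 (SD, n = 3), a difference of -0.57 (-1.07 to -0.07) with an adjusted p of 1.

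**Figure D4:**
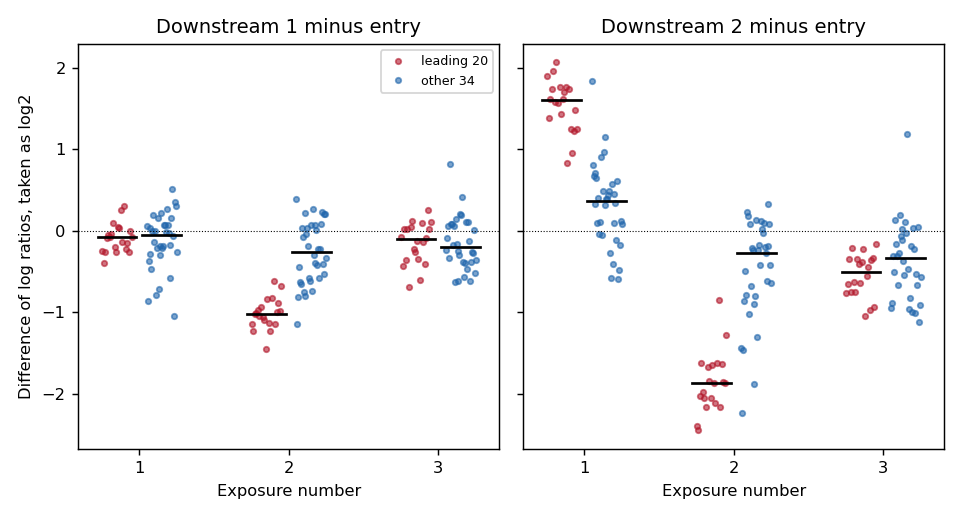
Difference of log ratios, taken as log2, between downstream 1 (left) or downstream 2 (right) and the entry for same-numbered exposures, with 1 point per feature, the 20 leading features in red, the other 34 in blue and black bars at the medians. For downstream 1 the red medians were -0.08, -1.02 and -0.10, and for downstream 2 they were 1.60, -1.87 and -0.50, so that the sign at downstream 2 changed with the number.

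Between the downstream sites the median difference over the list was 0.03, beside -0.02 over all tested features. A3J18 had the largest positive difference, 0.88, with 0.71, 1.45 and 1.09 at downstream 1 and 2.41, 1.57 and 1.92 at downstream 2. Its exposures did not overlap between the 2 sites, and the 95% interval was 0.05 to 1.71, yet the adjusted p was 1. P12AF4 followed at 0.41 (-0.22 to 1.04). The largest negative differences were -0.59 for A4G2 (-1.54 to 0.36) and -0.51 for P9DH12 (-2.43 to 1.40).

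Features near the lower limit of the list show how little separated them from others. P13BG7 was inside at 1.21 and P10CC9 at 1.2, while P3DH4 at 1.19 and A6A24 at 1.19 met the rest of the rule and fell outside. P10CC9 had site means of 1.43 ± 0.29, 1.11 ± 0.24 and 1.06 ± 0.10 for entry, downstream 1 and downstream 2 water, and P3DH4 had 1.27 ± 0.38, 1.06 ± 0.22 and 1.25 ± 0.14 (SD, n = 3). Between P10CC9 and P3DH4 the site means differed by less than either SD for the entry and downstream 1, and by more than either for downstream 2.

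A dye effect, 0.5 times the difference between the array with exposed RNA in Cy5 and its partner, cancels in the averages that chose the list where both arrays gave a value. Over 12 exposures it passed limma's threshold in 20 of 54 features (37%), beside 56.3% of all tested features, with 15 positive and 5 negative. Its median size was 0.07, beside 0.12 over all. The largest were -0.34 (SE 0.04, limma adjusted p 2.2e-05) for P6DF7 and -0.33 (SE 0.08, adjusted p 0.0023) for P3BH5 on one side, and 0.26 (SE 0.10, adjusted p 0.055) for P9DH12 and 0.23 (SE 0.04, adjusted p 0.00017) for P10DH10 on the other. P13AE11 was at 0.19 (SE 0.03, adjusted p 3.5e-05). All of these were small beside the mine-water means of the same features, which ran from 1.28 in P13AE11 to 2.48 in P9DH12.

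The array IDs start with A or P and read as plate and well. Of the 54 features, 44 were of the P series (81.5%) and 10 of the A series, beside 66.8% and 33.2% of tested features, and all 20 leading features were of the P series. The list was spread over 18 of 20 plates, with at most 7 on one (P10 and P13, 7 of 383 and 7 of 382 tested), and the leading features over 11 plates. What sets the A and P series apart was not given in the sources used here.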

How the data were processed

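The authors deposited 1 log ratio per feature and array, taken as log2. For scanner, background subtraction, filters, normalization and log base the sources used here give nothing. The 24 column medians lay between -0.0359 and 0.0257, so the authors' values were centred or nearly so, and depth does not apply: the number of arrays limits the precision. Per the labels, dyes were exchanged between the 2 arrays of an exposure. Among pairs of arrays of the same orientation the lowest r was -0.255, so not all pairs correlated positively.

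Arrays were centred on their median and both arrays of an exposure averaged. One limma fit (3.58.1, R 4.3.3; lmFit, eBayes) held all 12 exposures with site as group; Benjamini-Hochberg adjustment ran over all 7388 tested features, with a threshold of 0.05. Intervals are not adjusted for the number of tests. The fit was run on simulated data with independent noise in every exposure, which checks the calculation only. Real exposures did not all vary independently. Same-numbered exposures deviated together (every r over 0.1) for entry with downstream 1 (lowest 0.404) and upstream with downstream 2 (lowest 0.248). Named features were the 8 of highest mean, the 3 highest and 3 lowest upstream, the 2 largest each way per pair of mine-water sites and for the dye effect, the 3 highest and 3 lowest in spread, and the 2 on each side of the limit. Others named were chosen after their values were seen. The list, its members and these rules were chosen with earlier results of these data known. Profile groups were formed with scipy 1.17.1 and figures drawn with matplotlib 3.10.9. Alternatives covered scaling, centring, single dyes, missing values, array weights, all 24 arrays, pairing and left-out exposures.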

Additional observations from a re-analysis of the deposited data

Results flagged for a closer look

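P12AF4 and A4G2 had all 3 upstream exposures below 0 while every mine-water exposure was above 0, as the rule required. The difference between these sites was not tested, since the mine-water values chose the features. Upstream exposures were -0.53, -0.20 and -0.01 for P12AF4 and -0.41, -0.05 and -0.08 for A4G2, so some lay close to 0. The share of all tested features with 3 upstream exposures below 0 is not given here. P12AF4 had an upstream mean of -0.245 ± 0.26 and A4G2 one of -0.181 ± 0.20 (SD, n = 3), against mine-water means of 1.23 and 1.21. Neither upstream mean passed limma's threshold (adjusted p 0.79 and 0.87).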

How the results depend on the processing

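The 0 calls upstream and between mine-water sites held under every alternative run for them, among them array weights, all 24 arrays, single dyes, each exposure left out, the sites compared alone, and the exposure number as a replicate block (0 members called, also with both sites alone, a paired fit added after seeing the data, in which 10 members had an unadjusted p under 0.05 for downstream 1 minus entry, in place of 0). A test with 3 exposures a site and this spread says little about stability. The median upstream ratio stayed between 0.129 and 0.222. The median of downstream 1 minus entry ran from -0.647 (without entry exposure 1) to 0.0313 (without entry exposure 2), with 26 to 49 of 54 differences negative, and that of downstream 2 minus entry from -0.674 to 0.0865 for the same exposures, with 23 to 50 negative. Downstream 2 minus downstream 1 ran from -0.2 (without downstream 1 exposure 1) to 0.194 (without downstream 1 exposure 2), so neither sign held. Shares of all tested features are not given for these settings, so the counts of negative differences are values only. The number of features meeting the rule was 34 with a mean of at least 1.5, 78 with at least 1, and 49 to 64 under the other settings. Dye effects passed the threshold in 10 features of the list with scaled arrays and in 15 to 26 under the other settings, in place of 20. Over all tested features their share is given for the main setting only (56.3%), so these counts are values only. The cause was not tested. Features of the list with all upstream below all mine-water exposures numbered 38 to 51, in place of 48. The share of all tested features is given for the main setting only (2.49%), so nothing is read from this range. Of the named features' values, 454 of 457 mine-water means and 441 of 457 upstream means moved by less than 1 SD between exposures. Upstream means cannot move when a mine-water exposure is left out, nor mine-water means when an upstream one is. Many of these values were thus fixed in advance, and the counts say little about stability. Apart from the number meeting the rule, all values hold the list fixed. Grouping at a distance of 0.2 or 0.5 placed 43 or 51 features in 5 or 3 groups, in place of 46 in 4.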
